A study of Sus scrofa with 2 samples.

Results

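The ligands, receptors and signal carriers of the transforming growth factor beta (TGF-beta) pathway were followed in the somatic cells of 2 pig antral follicles. The set held 10 genes, found by their symbol in the gene list of both libraries, out of 22342 genes listed: the ligands TGFB1, TGFB2 and TGFB3, the latent binding protein LTBP1, the receptors TGFBR1, TGFBR2 and TGFBR3, and the intracellular proteins SMAD2, SMAD3 and SMAD7. Both follicles, AF75 (follicle 1 in the labels) and AF76 (follicle 2), were healthy, over 7 mm in diameter and from the ovaries of one pubertal Landrace × Yorkshire gilt, 210 days old, which had received pregnant mare serum gonadotropin, a hormone that drives follicle growth. The link of the follicle numbers to the names AF75 and AF76 comes from the names of the deposited data. Cells were flushed out of the punctured follicle together with cells washed off the cumulus-oocyte complex, and each follicle gave 1 library of the 10x Genomics 3′ kind, in which each captured transcript is counted once as a unique molecular identifier (UMI). Cells with 2000 to 5000 genes and less than 7% mitochondrial UMIs were kept, which left 9362 of 14289 barcodes in AF75 and 7843 of 15548 in AF76.

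The cells kept held 111226504 UMIs in AF75 and 108920601 in AF76, with a median of 11254.5 and 13902 UMIs per cell. Levels are given as CPM, the usual scaling of the UMIs of a gene to all UMIs of the same cells, with exact Poisson 95% intervals in parentheses, and shares of cells have exact Clopper-Pearson 95% intervals; both cover counting error only. There was no replicate follicle and both follicles came from the same animal, so no test between follicles was made. Of all barcodes, 56 were present in both libraries, and of the cells kept 18. Barcodes with leukocyte markers numbered 6 in AF75 and 31 in AF76, of which 2 and 10 were among the cells kept. The theca and stroma list summed to at most 16.6 CPM in each of clusters 0 to 8 other than cluster 5, against 17260 CPM or more for the granulosa list, whose leading gene INHA encodes the inhibin alpha chain.

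TGF-beta ligands are secreted in a latent form, bound to their propeptide and to latent binding proteins such as LTBP1, and must be activated before they bind a receptor. The active dimer is bound by TGFBR2, which recruits and activates TGFBR1, and TGFBR3 (betaglycan) presents ligand to them and also binds inhibin. TGFBR1 then activates SMAD2 and SMAD3, which act with SMAD4 in the nucleus, while SMAD7, itself a target of the pathway, blocks the receptor. In the ovary these ligands come from granulosa, theca and stromal cells and act on granulosa cell division, steroid synthesis and matrix.

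The stretches upstream of TGFB3 and SMAD7 are shown because TGFB3 was the ligand that most set the cells apart and SMAD7 is the feedback gene of the pathway. Each is the 250 bases before the start of the RefSeq gene in Sscrofa11.1, read 5′ to 3′ on the strand of the gene. TGFB3 lies on the minus strand, and its stretch is chr7:99162240-99162489. Capitals mark CGTCA, the reverse complement of TGACG (the core of the cAMP response element), 55 to 51 bases before the start.
TGFB3: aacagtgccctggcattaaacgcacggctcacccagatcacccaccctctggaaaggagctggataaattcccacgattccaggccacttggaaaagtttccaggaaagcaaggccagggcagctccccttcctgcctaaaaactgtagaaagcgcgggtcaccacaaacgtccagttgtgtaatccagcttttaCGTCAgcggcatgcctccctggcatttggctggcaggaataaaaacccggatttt
SMAD7 also lies on the minus strand, and its stretch is chr1:98543925-98544174. Capitals mark GTCTAGAC, the palindrome that SMAD proteins are known to bind, 165 to 158 bases before the start.
SMAD7: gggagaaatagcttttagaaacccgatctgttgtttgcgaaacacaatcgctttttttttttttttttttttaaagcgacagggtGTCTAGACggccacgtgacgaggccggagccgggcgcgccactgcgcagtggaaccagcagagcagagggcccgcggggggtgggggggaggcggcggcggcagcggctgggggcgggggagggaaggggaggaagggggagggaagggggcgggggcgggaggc
Both strands were searched. In 19570 promoters of this length, TGACG was in 19.6%, GTCTAGAC in 0.164% (32 promoters), the full cAMP response element TGACGTCA, which holds TGACG, in 1.70%, TATAAA in 9.76% and the short SMAD box GTCTG in 39.0%. Among the 10 genes GTCTAGAC was found for SMAD7 alone, TGACG for TGFB3, TGFBR1 and SMAD7, and neither TGACGTCA nor TATAAA for any. GTCTG was found for TGFB1, TGFB2, LTBP1 and all of TGFBR1, TGFBR2 and TGFBR3. The TGFB3 stretch had 52.8% G and C, the lowest of the 10 genes, whose other values ran from 54.0% (TGFBR1) to 80.0% (TGFB2), against a median of 57.6% over all promoters. These are matches of letters and not sites shown to be bound.

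Of the ligands, TGFB3 (chromosome 7, 99133873 to 99162239) was the most counted in both follicles. AF75 held 12485 TGFB3 UMIs, 112 CPM (110 to 114), and AF76 held 16789, 154 CPM (152 to 156). TGFB1 (chromosome 6, 49332169 to 49348642), the ligand most studied in wound repair and immunity, stood at 10.3 (9.72 to 10.9) for AF75 and 7.32 CPM (6.82 to 7.84) in AF76. TGFB2 (chromosome 10, 8306136 to 8435307) stood at 1.86 CPM (1.62 to 2.13) and 1.49 CPM (1.27 to 1.73). The order TGFB3, TGFB1, TGFB2 held in both follicles with intervals that did not overlap. Since these libraries count the 3′ end of a transcript, levels were not divided by length, and a gene with a poorly annotated 3′ end would be undercounted.

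LTBP1 (chromosome 3, 106300748 to 106724538), which holds latent ligand in the matrix, stood at 85.2 (83.5 to 86.9) for AF75 and 71.9 CPM (70.3 to 73.5) in AF76. The signalling receptor TGFBR1 (chromosome 1, 240842735 to 240918267) was at 84.0 CPM (82.3 to 85.7) and 68.6 CPM (67.0 to 70.1). Its partner TGFBR2 (chromosome 13, 16784370 to 16875828) was rarely counted, with 97 UMIs, 0.872 CPM (0.707 to 1.06), in AF75 and 98 UMIs, 0.900 CPM (0.730 to 1.10), in AF76. The co-receptor TGFBR3 (chromosome 4, 125109939 to 125310788) stood at 7.05 CPM (6.56 to 7.56) and 7.42 CPM (6.92 to 7.95). Both receptors of the signalling complex were thus counted, but 9344 and 7467 UMIs of TGFBR1 stood beside 97 and 98 of TGFBR2.

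The low count of TGFBR2 was not shared by the leukocyte barcodes of the same libraries, where its level was higher. In them TGFBR2 stood at 65.7 (10 UMIs in 6 barcodes) for AF75 and 103 CPM (22 UMIs in 31 barcodes) in AF76, and 33.3% and 41.9% of those barcodes had a TGFBR2 UMI, at a median depth of 9956 and 3892 UMIs. Of the cells kept, 1.00% (0.812% to 1.23%) in AF75 and 1.15% (0.924% to 1.41%) in AF76 had one. Red blood cell barcodes, which should lack these genes, had no TGFBR2 UMI in 12 barcodes of AF75 (median 1811.5 UMIs) and 46 of AF76 (median 3602 UMIs). By the exact interval, 0 of 46 leaves room for a share of 7.71%. A background of the size seen in the cells kept was therefore not detectable in them.

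SMAD2 (chromosome 1, 97415360 to 97511388) stood at 107 (105 to 109) for AF75 and 91.4 CPM (89.7 to 93.3) in AF76. SMAD3 (chromosome 1, 164998457 to 165124455), the other SMAD that TGFBR1 activates, stood at 10.4 CPM (9.78 to 10.98) and 12.6 CPM (11.9 to 13.3). SMAD7 (chromosome 1, 98512800 to 98543924) was at 1.44 CPM (1.22 to 1.68) in AF75, from 160 UMIs, and at 0.331 CPM (0.231 to 0.458) in AF76, from 36 UMIs. In the order of the 10 levels, neighbours had separate intervals in AF75 except LTBP1 and TGFBR1, SMAD3 and TGFB1, and TGFB2 and SMAD7, and in AF76 except TGFBR3 and TGFB1.

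TGFB3 was found in fewer cells than the members of a similar level. In AF75, SMAD2 was found in 62.6% (61.6% to 63.5%) of cells and TGFB3, at a slightly higher level, in 36.7% (35.7% to 37.7%). In AF76, SMAD2 was found in 64.8% and TGFB3 in 45.0% (43.9% to 46.2%) of cells. TGFBR1 was found in 56.7% and 54.6%, and LTBP1 in 53.5% and 52.8%. After thinning every cell to 5000 UMIs, TGFB3 was found in 24.3% of cells in AF75 and 30.2% in AF76, and SMAD2 in 37.5% and 34.5%. In red blood cell barcodes 1 of 12 in AF75 and 3 of 46 in AF76 had a TGFB3 UMI (8.33% and 6.52%), and 0 of 12 and 2 of 46 a SMAD2 UMI.

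TGFB3 was unevenly spread over cells. If its UMIs had been spread evenly over the cells by depth, 28.4% of cells in AF75 and 14.8% in AF76 would have held none, while 63.3% and 55.0% held none. At the other end 2.98% of cells in AF75 and 6.38% in AF76 held 10 or more TGFB3 UMIs, and the highest cell held 64 and 72. The 10% of cells with the most held 67.0% and 61.8% of all TGFB3 UMIs, against 37.5% and 35.0% for SMAD2. The ratio of the variance to the mean in cells thinned to 5000 UMIs was 3.64 in AF75 and 3.61 in AF76, ranked 135 of 9917 and 160 of 9847 genes with at least 200 UMIs, whose medians were 1.04 and 1.05. That ratio rises with the level of a gene. Within cluster 0 still 43.8% and 40.4% of cells had no TGFB3 UMI where an even spread gives 10.7% and 5.63%.

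**Figure D1:**
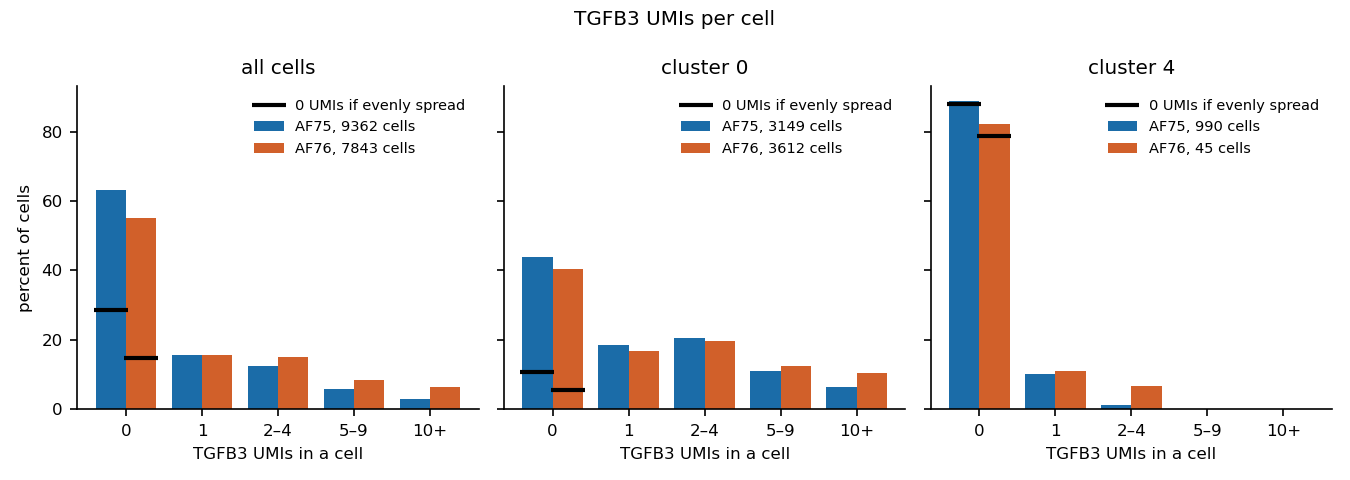
Percent of cells (y axis) by the number of TGFB3 UMIs in a cell (x axis) in all cells, cluster 0 and cluster 4 of each follicle; black lines mark the percent with 0 UMIs that an even spread by depth would give. Cells without TGFB3 exceeded that line in all cells and in cluster 0 (43.8% against 10.7% in AF75), and lay close to it in cluster 4 (88.7% against 88.0%).

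TGFB2 was also uneven, in AF75. Of its 207 UMIs there, 51 (24.6%) came from 2 of 9362 cells, with 28 and 23 UMIs, and the third cell had 8. In AF76 the highest cells held 10 and 5 of 162 UMIs. The TGFB2 level of AF75 therefore rested in part on 2 cells.

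The cells were grouped into 10 clusters from variable genes, with the 10 members and the other listed pathway genes left out, and clusters are called by number. Cluster 0 (3149 cells in AF75 and 3612 in AF76) had the highest sum of the mural granulosa list (AREG, CYB5A and IL33), at 8707 and 11152 CPM. Cluster 1 (2669 and 1897 cells) was led by genes of cholesterol and fatty acid synthesis (INSIG1, SCD, SQLE), and cluster 2 (1275 and 809 cells) by TMEM178A, HBB and NAV2. Leading genes were taken over both follicles together. HBB stood at 179 CPM in AF76 cluster 2 but at 1.44 CPM in AF75 cluster 2, below the 4.02 CPM of AF75 cluster 0. Cluster 3 (619 and 476 cells) was led by STAR, cluster 6 (458 and 121) by genes of cell division, cluster 7 (175 and 174) by ALDH1A2 and cluster 8 (26 and 26) by interferon-induced genes. Cluster 4 (990 cells in AF75 and 45 in AF76) was led by ALPK2, CALCRL and PTGS2 and had the highest sum of the cumulus list (VCAN, TNFAIP6, SHAS2 and PTX3) in each follicle, at 13709 CPM in AF75 but 2126 CPM in AF76. Its 45 AF76 cells also differed in AREG, with 5281 CPM against 254 in AF75. PTX3 of the cumulus list was low in AF75 cluster 4, at 1.41 CPM against 5.00 in cluster 0 and 14.3 in cluster 3. In AF76 cluster 4, 3 of the 4 genes of that list were detected. Clusters 5 (1 and 653 cells) and 9 (0 and 30) were found almost only in AF76. A gene counts below as higher or lower in a cluster when its CPM differed from that of the other cells of the same follicle by 1.5-fold or more in the same direction in both follicles, among genes with at least 200 UMIs on one side of the comparison in each follicle; 7 of the 10 genes could be compared, and TGFB2, TGFBR2 and SMAD7 are given by their counts.

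Most TGFB3 UMIs were in cluster 0. There it stood at 209 (204 to 213) for AF75 and 233 CPM (229 to 237) in AF76, against 64.5 and 85.2 CPM in the other cells, a ratio of 3.24 (3.12 to 3.36) and 2.73 (2.64 to 2.83). Cluster 0 held 7687 of the 12485 TGFB3 UMIs of AF75 and 11831 of the 16789 of AF76. It headed the genes that led cluster 0. TGFB3 itself had been left out when the clusters were formed, but genes that vary with it, such as IL33, had not. TGFB3 was the 1 of 7 compared members past 1.5-fold in cluster 0, where 1.02% of all 9075 genes compared were higher and 3.45% lower. With 14 clusters the matching cluster had TGFB3 log2 ratios of 0.93 in AF75 and 0.39 in AF76, and the latter did not pass 1.5-fold. The level was intermediate in cluster 1 (91.7 and 104 CPM) and cluster 3 (89.6 and 112 CPM). It was lower in cluster 2 (52.6 and 63.3 CPM), cluster 7 (37.3 and 66.2 CPM), cluster 6 of cycling cells (25.03 and 39.0 CPM) and cluster 4 (11.9 and 20.3 CPM). In cluster 8 it stood at 136 (99.0 to 183) for AF75 and 238 CPM (192 to 293) in AF76, from 44 and 91 UMIs.

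No other compared member was higher in cluster 0 past 1.5-fold. SMAD2 was at 78.2 CPM there against 122 in the other cells of AF75, and at 74.8 against 106 CPM in AF76. LTBP1 was at 65.0 against 95.2 CPM and 60.2 against 82.1 CPM. TGFB1 stood at 5.62 against 12.6 for AF75 and 5.81 against 8.63 CPM in AF76, a ratio of 0.445 (0.381 to 0.518) and 0.673 (0.581 to 0.779), so it was lower past 1.5-fold in AF75 but not in AF76. TGFB1 was past 1.5-fold in both under 7 of the alternatives tried, among them another random seed and 20 components, with log2 ratios in AF76 between -0.62 and -0.89 against -0.57 here. TGFB2, with too few UMIs to be compared, stood at 2.47 against 1.56 CPM in AF75 (91 UMIs in cluster 0), a ratio of 1.59 (1.19 to 2.10), while the ratio in AF76 was 1.01 (0.734 to 1.39; 76 UMIs). The AF75 ratio may rest on the 2 cells that held 51 of the 207 TGFB2 UMIs of AF75, whose cluster was not examined. SMAD7 was rare in cluster 0, with 4 UMIs in AF75, 0.109 CPM (0.0296 to 0.278), and 0 in AF76. Taking 3 UMIs as the most that a count of 0 allows, this leaves room for 0.0591 CPM. TGFBR1, TGFBR3 and SMAD3 stayed within 1.5-fold of the other cells in both follicles.

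**Figure D2:**
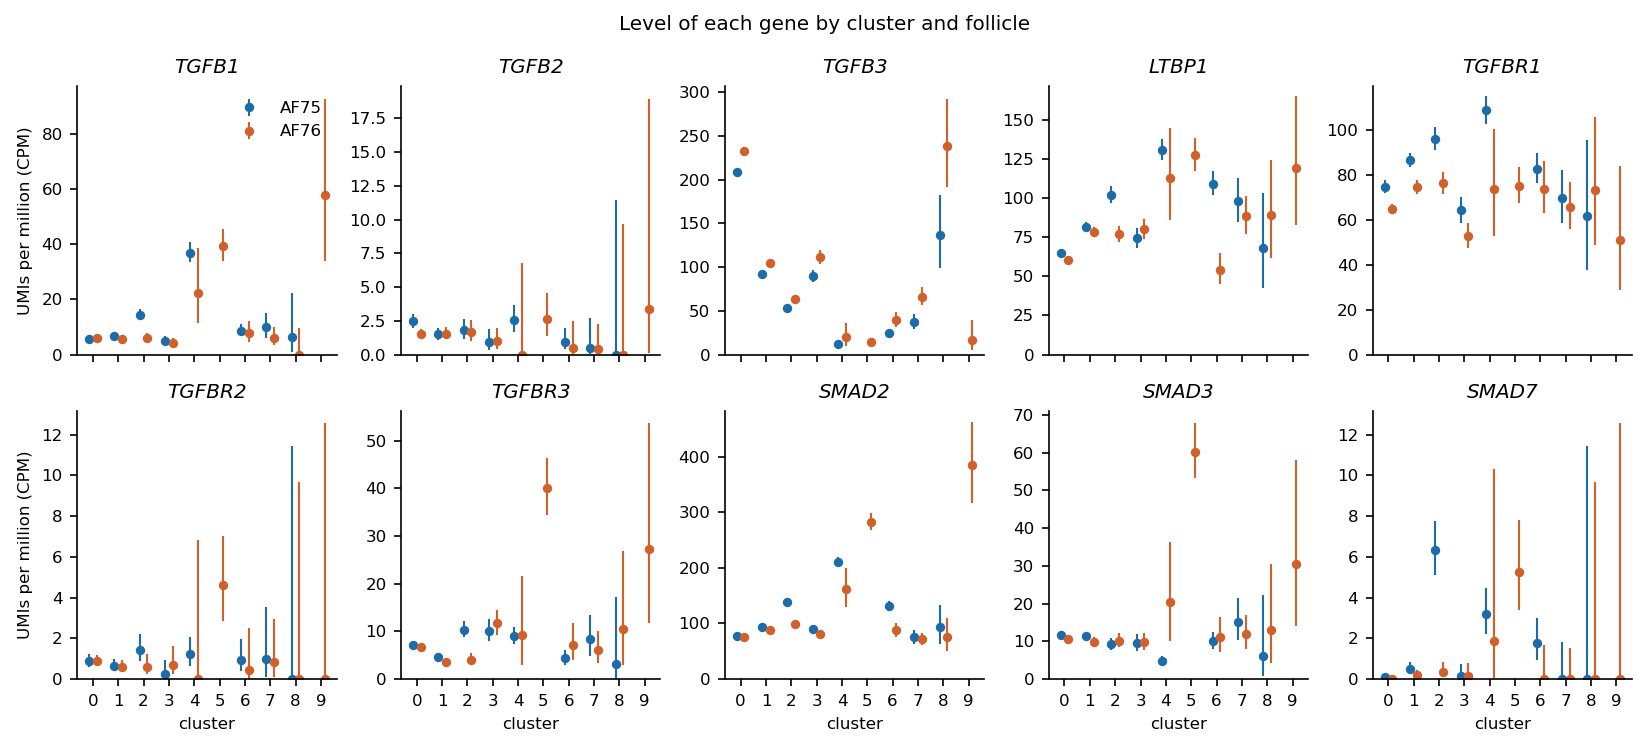
Level in CPM (y axis, a separate linear scale from 0 for each gene) of the 10 genes in each cluster (x axis) of AF75 and AF76, with exact Poisson 95% intervals; clusters with fewer than 20 cells in a follicle are not drawn. TGFB3 was high in cluster 0 (209 and 233 CPM) and low in clusters 4, 5 and 9, where TGFB1 and SMAD2 were high. In clusters 5 and 9, 38.6% and 37.3% of all genes compared were also higher.

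Cluster 4, where the sum of the cumulus list was highest, had the reverse ligand pattern. TGFB1 stood at 36.9 (33.4 to 40.8) there for AF75 and 22.2 CPM (11.5 to 38.7) in AF76, against 7.49 and 7.24 CPM in the other cells, and TGFB3 at 11.9 against 123 CPM and 20.3 against 155 CPM. The AF76 values rest on 12 and 11 UMIs in 45 cells. SMAD2 was higher, at 211 against 96.4 for AF75 and 163 against 91.1 CPM in AF76, and so was LTBP1, at 131 against 80.3 CPM and 113 against 71.7 CPM. Of the 7 members compared 3 were thus higher and 1 lower, where 3.92% of all 9647 genes compared were higher and 6.36% lower. TGFBR1 was at 109 against 81.4 CPM and 73.9 against 68.5 CPM and did not pass 1.5-fold. SMAD3 was at 4.70 against 10.97 CPM in AF75 but 20.3 against 12.5 CPM in AF76, the latter from 11 UMIs. SMAD7 had 34 UMIs in AF75, 3.19 CPM against 1.25 in the other cells, and 1 UMI in AF76. Without integration of the follicles the matching cluster differed in its cells and kept the calls of TGFB3 and SMAD2 only.

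Cluster 5, with 653 cells in AF76 and 1 in AF75, differed from the other AF76 cells in most members. Its granulosa list summed to 5105 CPM, against 17260 or more in clusters 0 to 4 and 6 to 8. The lower sum came from INHA, at 2390 CPM against 24936 in AF76 cluster 0. By the same comparison CYP19A1 was at 35.9 against 46.3 CPM. The other detected genes of the list were higher: CYP11A1 (1997 against 1735 CPM), INHBA (649 against 262) and FSHR (33.3 against 0.296). The smooth muscle list of cluster 5 summed to 385 CPM, against 37.4 at most elsewhere, and its leukocyte list to 151 CPM, against 26.2 at most elsewhere. Its theca and stroma list summed to 41.4 CPM and its endothelium list to 26.5 CPM, against 16.6 and 15.7 at most in clusters 0 to 4 and 6 to 8. Genes within each of the last lists went different ways against AF76 cluster 0. In the endothelium list VWF was higher (23.5 against 0.473 CPM), PECAM1 was lower (3.07 against 7.78 CPM) and CDH5 had no UMI. In the theca and stroma list CYP17A1 was lower (0.438 against 2.58 CPM), while DCN (18.8 against 0.591 CPM) and the other genes were higher. The part of smooth muscle, leukocyte, theca, stroma and endothelium cells in the values of cluster 5 was not tested. Its median depth was 6386 UMIs. SMAD2 stood there at 283 CPM (267 to 298) against 83.1 in the other AF76 cells, SMAD3 at 60.3 CPM (53.4 to 67.8) against 10.5, TGFBR3 at 40.1 CPM (34.5 to 46.4) against 5.99 and TGFB1 at 39.2 CPM (33.7 to 45.4) against 5.92. LTBP1 was at 128 CPM against 69.4, and TGFB3 at 14.9 CPM (11.6 to 18.9) against 160. Of 7 members 5 were higher and 1 lower, but 38.6% of all 9706 genes compared were higher there and 14.6% lower, and the median log2 ratio of all genes was 0.36. Relative to that median LTBP1 was no longer past 1.5-fold, while the other 5 were. TGFBR1, at 75.2 CPM (67.4 to 83.6) against 68.3, was level.

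TGFBR2 stood at 4.60 CPM in cluster 5, the highest of all clusters, from 21 UMIs, and 13 of these were in 9 leukocyte barcodes that fell into it. The remaining 644 cells had 8 TGFBR2 UMIs, 1.79 CPM (0.772 to 3.52), where the ratio of all 653 cells to the other AF76 cells had been 6.24 (3.66 to 10.2). The other members hardly moved without them. TGFB1 was at 38.5 CPM, TGFBR3 at 39.8 CPM, SMAD2 at 287 CPM and SMAD3 at 61.5 CPM, and the 9 barcodes had 0 SMAD3 UMIs. SMAD7 had 24 UMIs in cluster 5, 5.26 CPM (3.37 to 7.83), so that 24 of the 36 SMAD7 UMIs of AF76 came from its 653 cells. In cluster 9 (30 cells, 293932 UMIs) the granulosa list was also low at 2817 CPM, with INHA at 1783 CPM, but FSHR was at 95.3 CPM. Its theca and stroma list summed to 54.4 CPM, mostly from 14 COL1A1 UMIs, with no UMI of DCN, LUM or CYP17A1. SMAD2 stood at 384 CPM (317 to 462) in cluster 9, TGFB1 at 57.8 CPM (33.7 to 92.6) and TGFB3 at 17.0 CPM (5.52 to 39.7). Of 7 members compared there 5 were higher and 1 lower, where 37.3% of all 9833 genes compared were higher and 20.3% lower.

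**Figure D3:**
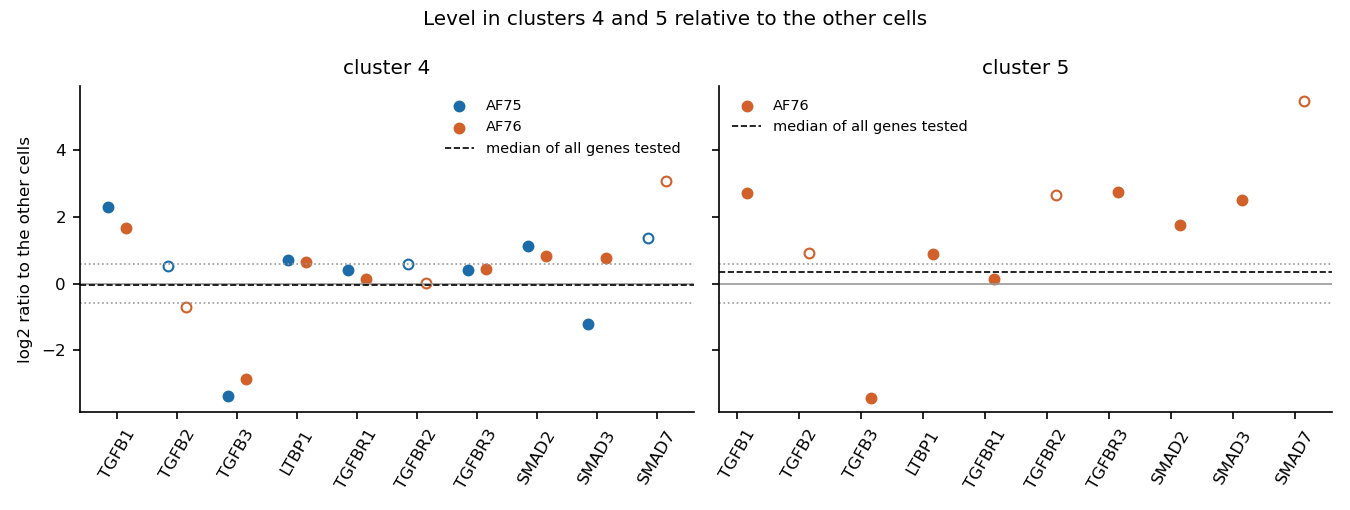
Log2 ratio of the level of each gene in cluster 4 (both follicles) and cluster 5 (AF76) to the other cells of the same follicle; open points are genes with too few UMIs to compare, the dashed line is the median of all genes compared and dotted lines mark 1.5-fold. TGFB3 lay far below the line in both clusters and TGFB1 and SMAD2 above it, and TGFBR1 lay within 1.5-fold.

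In the remaining clusters at most 1 of 7 members compared stood out, each time lower. TGFBR3 was lower in cluster 1 (0.536% of all genes higher and 1.39% lower), at 4.70 against 7.99 for AF75 and 3.68 against 8.75 CPM in AF76, and TGFB1 in cluster 3 (1.18% and 2.13%), at 4.90 against 10.7 CPM and 4.31 against 7.53 CPM. TGFB3 was the 1 member past 1.5-fold in cluster 2 (1.03% and 2.08%), cluster 6 (4.26% and 4.14%) and cluster 7 (2.95% and 3.48%), and none passed in cluster 8 (5.0% higher and 3.62% lower). In cluster 2, SMAD7 stood at 6.32 CPM (5.10 to 7.75) in AF75, from 92 of the follicle's 160 UMIs, but at 0.335 CPM (0.0913 to 0.858), from 4 UMIs, in AF76. TGFBR1 stood between 51.0 and 109 CPM in every cluster with 20 or more cells in a follicle.

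Between the follicles no member with enough UMIs to be compared passed 1.5-fold over all cells. Of 8 compared, 0 were called, where 5.62% of all 10049 genes compared were past 1.5-fold, 1.79% higher in AF76 and 3.83% lower. TGFB3 was 1.37-fold (1.34 to 1.41) as high in AF76 as in AF75, SMAD3 1.21-fold (1.12 to 1.31) and TGFBR3 1.05-fold (0.953 to 1.16). Cluster 5, nearly absent from AF75, held 275 of the 1371 SMAD3 UMIs of AF76 and 183 of the 808 TGFBR3 UMIs. In the other AF76 cells SMAD3 stood near its AF75 level and TGFBR3 below it. TGFB1 stood at 0.710 (0.648 to 0.778) of its AF75 level, and without clusters 5 and 9, where cluster 5 alone held 179 of the 797 AF76 UMIs, its log2 ratio was -0.83, past 1.5-fold, an alternative chosen after seeing the data. Relative to AF75, TGFBR1 stood at 0.816, LTBP1 at 0.844, SMAD2 at 0.852 and TGFB2 at 0.799 (0.647 to 0.986). Of the 207 AF75 UMIs of TGFB2, 51 came from 2 cells. Its ratio, and whether it lay below 1, thus rested in part on these cells, which its interval does not cover. SMAD7, with too few UMIs to be compared by that rule, stood at 0.230 (0.155 to 0.332) of its AF75 level, and passed when the minimum was 50 UMIs. Cluster 0 made up 33.6% of cells in AF75 and 46.1% in AF76, cluster 4 10.6% and 0.574%, and cluster 5 0.0107% and 8.33%. The ratios over all cells thus mix the make-up of the libraries with levels within clusters.

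Within cluster 0 the ratios of TGFB3 and TGFB1 were nearer to 1 than over all cells, and that of TGFB2 was farther from it. TGFB3 was 1.12-fold (1.08 to 1.15) as high in AF76, TGFB1 1.03-fold (0.863 to 1.24), SMAD2 0.956-fold and LTBP1 0.926-fold, and 0 of 7 members passed 1.5-fold, where 1.23% of 8692 genes did (0.288% higher and 0.943% lower). TGFB2, below the minimum, stood at 0.606 (0.441 to 0.831) of its AF75 level there. That ratio may also rest on the 2 AF75 cells with the most TGFB2 UMIs, whose cluster was not examined. Within cluster 1, 0 of 6 passed, where 1.27% of 8128 genes did (0.246% higher and 1.02% lower), with ratios between 0.821 and 1.14, and within cluster 3, 0 of 4, where 0.951% did (0.169% higher and 0.782% lower). Within cluster 4, with its 45 AF76 cells, TGFB1 was 1 of 4 past it, at 0.601 (0.308 to 1.06), where 27.2% of genes were (16.9% higher and 10.3% lower). Cluster 2 was the other exception. TGFB1 was at 14.3 for AF75 and 6.11 CPM in AF76, a ratio of 0.428 (0.323 to 0.561), 1 of 5 members compared, where 8.43% of 6443 genes passed (2.81% higher and 5.62% lower). TGFBR3 (150 and 49 UMIs) stood at 0.398 (0.282 to 0.553) of its AF75 level there, and SMAD7 at 0.0530 (0.0141 to 0.140). The cumulus list of cluster 2 summed to 5429 CPM in AF75 and 1455 in AF76, and its red blood cell list to 1.6 and 180 CPM; their part in these ratios was not tested.

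**Figure D4:**
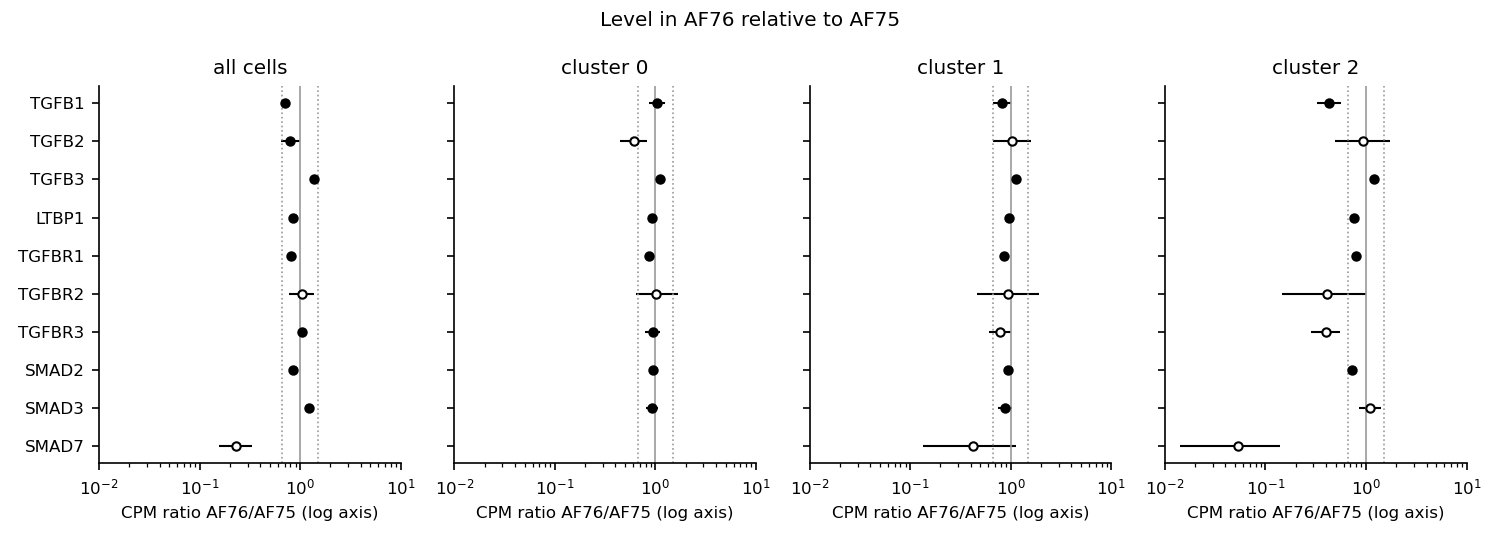
Ratio of the CPM of AF76 to that of AF75 (x axis, log scale) for each gene in all cells and in clusters 0, 1 and 2, with exact 95% intervals from counting error; open points have fewer than 200 UMIs in both follicles, dotted lines mark 1.5-fold, and SMAD7 in cluster 0 is not drawn because AF76 had 0 UMIs. Most members lay within 1.5-fold, and SMAD7 lay lowest in all cells (0.230) and in cluster 2 (0.0530).

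The other genes of the pathway, 48 listed genes in 4 lists, were counted by the same rule between the follicles. Of 37 compared over all cells, 3 were higher in AF76 and 5 lower, where 1.79% and 3.83% of all genes were. THBS1 (thrombospondin 1, which activates latent TGF-beta) stood at 363 CPM in AF75 and 53.0 in AF76, a ratio of 0.146 (0.142 to 0.150). CCN2, a matrix protein gene that TGF-beta is known to induce, stood at 182 and 47.6 CPM, PMEPA1, a feedback inhibitor, at 193 and 108 CPM, and BMP1, a protease that frees latent complexes, at 331 and 177 CPM. VASN, a protein that binds TGF-beta, stood at 2.72 and 1.08 CPM. The 3 higher genes were CDKN2B (18.7 and 28.8 CPM), TAGLN (6.99 and 16.7 CPM) and ACTA2 (0.171 and 3.54 CPM). ACTA2, an actin of smooth muscle, stood at 63.3 CPM in cluster 5 and 0.929 CPM in the other AF76 cells. TAGLN is on the same smooth muscle list, which summed to 385 CPM in cluster 5. It too was higher there than in the other AF76 cells. Cluster 5 was nearly absent from AF75, so the ratios of ACTA2 and TAGLN rested in part on it. The median log2 ratio of the 37 was -0.09, against -0.00 for all genes. Within cluster 0, THBS1 (33.8 and 15.4 CPM), CCN2 (810 and 414 UMIs, a ratio of 0.371) and BMP1 (223 and 142 CPM) were again lower in AF76, and TAGLN (3.86 and 5.95 CPM) was higher.

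In cluster 0, where most TGFB3 UMIs lay, 0 of 32 listed genes were higher and 5 were lower, where 1.02% and 3.45% of all genes were: THBS1, CCN2, TAGLN, SKIL and KLF10. CCN2 stood at 262 CPM in the other cells of AF75 and had a log2 ratio of -3.57 in cluster 0, and in AF76 it stood at 8.16 against 82.1 CPM. SKIL, a SMAD co-repressor that the pathway induces, was at 85.5 against 217 CPM and 83.3 against 165 CPM. Genes named for the clusters below were chosen after their values were seen. In cluster 4, 8 of 35 were higher and 3 lower, where 3.92% and 6.36% of all genes were. THBS1 stood at 2075 against 181 for AF75 and 196 against 52.3 CPM in AF76, CCN2 at 800 against 117 CPM and 329 against 46.2 CPM, SKIL at 358 against 154 CPM and 309 against 126 CPM, and KLF10, an early response gene of the pathway, at 36.7 against 6.96 CPM and 25.9 against 6.62 CPM. BMP1, NEDD4L, PMEPA1 and TSC22D1 were the other 4 higher genes, and ITGB5, CD109 and CDKN2B the 3 lower. In cluster 2, SKIL, PMEPA1 and CCN2 were higher and none of 34 was lower, where 1.03% and 2.08% of all genes were. In cluster 5, 25 of 35 were higher and 5 lower, where 38.6% and 14.6% of all genes were. CCN2 was among the higher ones there, at 471 against 29.1 CPM.

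Across cells the members were hardly related to each other. Pearson's r of log-normalized values was computed for the 45 pairs over 9362 cells in AF75 and 7843 in AF76, and in no pair did it reach 0.1 in size in both follicles. LTBP1 and SMAD2 had r of 0.0707 and 0.0659, TGFB3 and SMAD2 -0.0777 and -0.0707, and TGFB1 and TGFB3 -0.0565 and -0.0508. SMAD2 and SMAD3 had 0.109 in AF76 but -0.00433 in AF75. In cells thinned to 5000 UMIs, TGFB1 and TGFB3 were found together in 0.648 of the number of cells that independence gives in AF75 and 0.849 in AF76. Counts of most members are sparse and all cells of a follicle share 1 library, so correlations this weak are no finding.

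TGFB3 had clearer companions outside the set. Of 9715 genes with at least 200 UMIs in both follicles, the one most like it was IL33, an interleukin-1 family cytokine and one of the mural list, with r of 0.398 in AF75 and 0.386 in AF76. SRXN1 (0.272 and 0.327), PQLC1 (0.271 and 0.283), RPS12 (0.263 and 0.272) and PHC2 (0.253 and 0.253) followed. The most opposed genes, named after their values were seen, were PDCD4 (-0.316 and -0.237), VCAN (-0.309 and -0.215), the matrix proteoglycan of the expanding cumulus, and ENO1 (-0.240 and -0.208). Within cluster 0 alone TGFB3 and IL33 still had r of 0.261 and 0.268, while TGFB3 and VCAN had -0.0573 and -0.0298.

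The same relation was seen in levels. Among cells thinned to 5000 UMIs, those with 4 or more TGFB3 UMIs (397 in AF75 and 468 in AF76) had IL33 at 4696 and 4697 CPM, and those with none (7077 and 5403) at 1756 and 1968 CPM. Within cluster 0 these were 5271 and 5004 CPM against 3412 and 3086 CPM. AREG, an EGF-like ligand of the mural list, was higher with more TGFB3 over all cells, from 2474 to 4161 for AF75 and from 4641 to 7507 CPM in AF76, and less within cluster 0, from 4027 to 4484 and from 6315 to 7898 CPM. VCAN was at 2495 CPM in cells without TGFB3 and 531 CPM in cells with 4 or more in AF75, and at 489 and 206 CPM in AF76. Within cluster 0 VCAN was at 345 and 313 for AF75 and 160 and 156 CPM in AF76. TGFBR1, which stood at 84.8 and 84.1 for AF75 and 68.8 and 64.5 CPM in AF76, was nearly the same in cells without and with TGFB3.

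**Figure D5:**
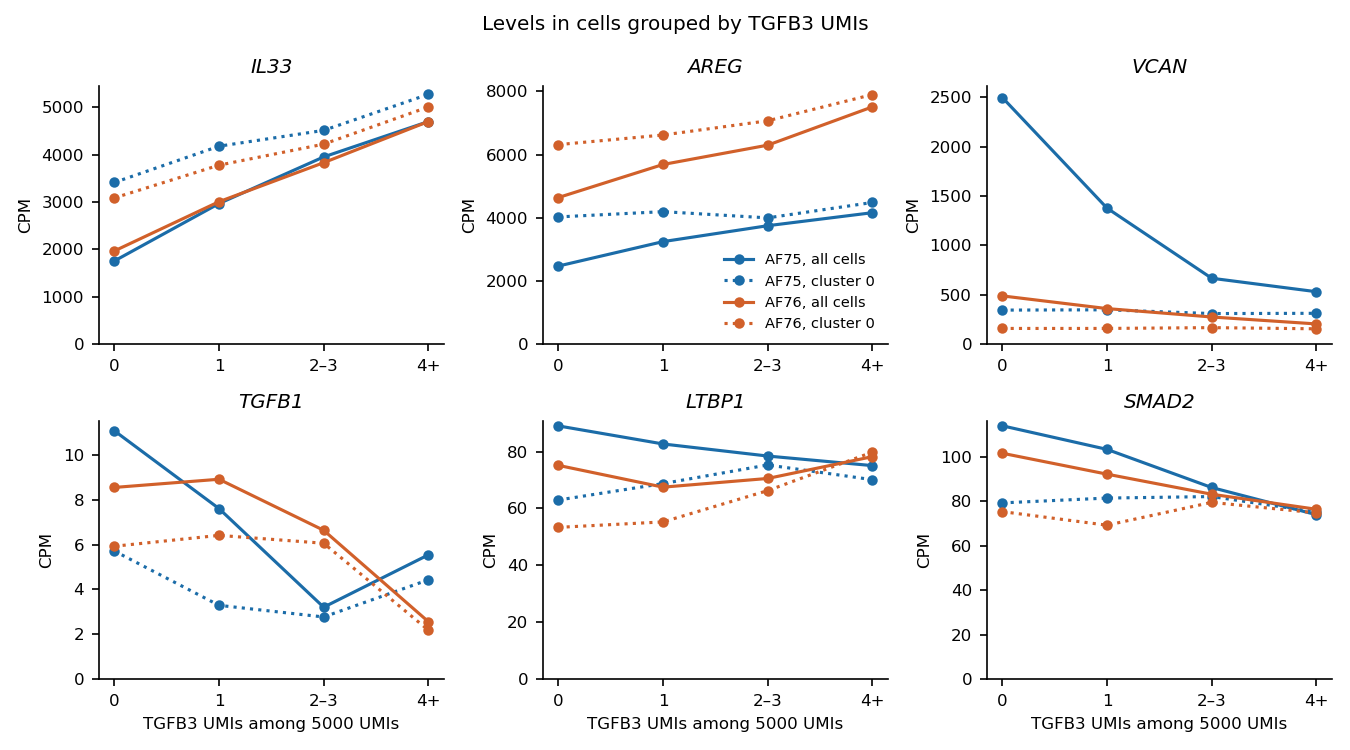
Level in CPM (y axis, from 0) of 6 genes in cells grouped by their number of TGFB3 UMIs after thinning to 5000 UMIs per cell (x axis), in all cells (solid) and in cluster 0 (dotted) of each follicle. IL33 was higher with more TGFB3 in all cells and within cluster 0, and VCAN was lower with more TGFB3 over all cells but nearly level within cluster 0.

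For the other members at most the 5 genes with the highest r are named, where r reached 0.1 in both follicles. SMAD2 went with S1PR1 (0.221 and 0.255), VCAN (0.251 and 0.210), NAV2 (0.254 and 0.202), INHBB (0.191 and 0.223) and THBS1 (0.178 and 0.180). INHA was the gene most opposed to SMAD2 (-0.207 and -0.308) and to TGFB1 (-0.171 and -0.227), named after its values were seen. LTBP1 went with VCAN (0.210 and 0.136), THBS1 (0.158 and 0.111), COL4A2 (0.113 and 0.106) and an unnamed gene, ENSSSCG00000023322 (0.104 and 0.123). TGFB1 went with THBS1 (0.187 and 0.148), APOD (0.148 and 0.148), RGS4 (0.167 and 0.147), F3 (0.146 and 0.142) and SERINC5 (0.136 and 0.135), and TGFBR1 with VCAN (0.126 and 0.110). VCAN was thus among the companions of SMAD2, LTBP1 and TGFBR1 and among the genes most opposed to TGFB3. For TGFB2, TGFBR2, TGFBR3, SMAD3 and SMAD7 no gene reached 0.1 in both follicles. The nearest to SMAD7 was SKIL (0.109 and 0.0937), named here after its value was seen.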

How the data were processed

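Follicular cells of 2 antral follicles were sequenced as 10x Genomics 3′ libraries, 1 per follicle. The authors aligned the reads and counted UMIs with Cell Ranger (6.0.2 in the submitters' processing notes) against the pig genome Sscrofa11.1, and deposited UMI counts per gene and barcode, which were used without further scaling. The deposited matrices held 125409747 UMIs in AF75 and 127414267 in AF76. Genes are named by symbol, and 1045 symbols were taken from the RefSeq table.

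Barcodes with 2000 to 5000 genes and less than 7% UMIs of 13 mitochondrial genes were kept. Doublets were scored by the share of artificial doublets among neighbours and left in, and the 6.9% of cells with the highest scores (646 and 541) were left out in an alternative. Cells were clustered in Seurat 5.3.0 (R 4.3.3) with anchor integration, 2000 variable genes and 40 principal components, at the lowest resolution in steps of 0.02 that gave 10 clusters (0.42). Members and pathway genes were left out of the variable genes. UMIs were summed per group of cells in Python 3.11.15 (scipy 1.17.1). Ratios have exact conditional 95% intervals, and 0.5 UMI was added for log2 ratios. Correlations were Pearson's r of the natural log of 1 plus UMIs per 10000. The fold call between the follicles over all cells was tested on simulated UMI sums with known changes. The steps before it and the cluster calls were not tested in this way.

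With 1 library per follicle there is no p-value. A gene was called past 1.5-fold if it had at least 200 UMIs in 1 of the groups compared. The genes named were the 10 members, the listed pathway genes past that fold between the follicles or in cluster 0, and for each member the 5 genes with the highest smaller r of both follicles where it reached 0.1. The members, lists and markers were chosen with earlier results of these data known. Leukocyte barcodes had at least 10 UMIs over at least 3 of 8 leukocyte markers, and red blood cell barcodes at least 20% haemoglobin UMIs. Of the pathway lists FKBP1A and COL4A1 were not among the gene symbols. A few genes that the naming rule selects are not reported here.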

Additional observations from a re-analysis of the deposited data

Results flagged for a closer look

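For 3 results a cluster lay above the other cells in one follicle and below them in the other, and this difference between the follicles was not tested. The log2 ratio of TGFBR3 in cluster 2 to the other cells was 0.66 in AF75 and -0.92 in AF76, from 150 and 49 UMIs. That of SMAD3 in cluster 4 was -1.21 in AF75 and 0.76 in AF76, from 50 and 11 UMIs. That of TGFBR3 in cluster 8 was -0.61 in AF75 and 0.67 in AF76, from 1 and 4 UMIs.

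Several members had signal in barcodes outside the limits on cells and in leukocyte barcodes, which were taken from all deposited barcodes. Of the leukocyte barcodes, 2 of 6 in AF75 and 10 of 31 in AF76 were also among the cells compared. In leukocyte barcodes TGFB1 stood at 158 for AF75 and 65.6 CPM in AF76, TGFBR2 at 65.7 and 103 CPM, and TGFBR3 at 28.1 CPM in AF76. In barcodes with a mitochondrial share of 7% or more TGFB3 stood at 194 for AF75 and 260 CPM in AF76, and in AF76 SMAD3 stood at 23.4 CPM and TGFBR2 at 5.11 CPM. In AF76 barcodes with fewer than 2000 genes TGFB1 stood at 12.02 CPM and TGFBR2 at 2.37 CPM. In AF75 barcodes with more than 5000 genes TGFBR2 stood at 3.401 CPM.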

How the results depend on the processing

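No paired analysis was possible because each follicle gave 1 library, and no library could be left out for the same reason. The number of members past 1.5-fold between the follicles was 0, and became 1 without clusters 5 and 9 (TGFB1) and 1 with a minimum of 50 UMIs (SMAD7). In cluster 0 it was 1 (TGFB3) and became 2, with TGFB1 added, without the 6.9% highest doublet scores, without integration, with 6 clusters, with 20 components, with the listed genes allowed among the variable genes and with another random seed. It became 3 with the mean of per-cell CPM (TGFB1 and SMAD2 added) and 0 with 14 clusters. In cluster 4 it was 4 and became 2 without integration, with 6 clusters, with the listed genes allowed and with a fold of 2, and 3 relative to the median of all genes. TGFB3 was lower in cluster 4 under each of these. In cluster 5 it was 6 and stayed between 5 and 8. No member pair reached an r of 0.1 in both follicles under any setting tried. Of the log2 ratios of members recomputed for clusters, 487 stayed within the counting interval of the reported value, 72 left it and 1 changed sign, LTBP1 in cluster 4 of AF76, at -0.059 without integration, and of those between the follicles 76 and 24. The cause of these shifts was not tested. The r of TGFB3 and IL33 was 0.407 and 0.402 by rank and 0.331 and 0.324 in cells thinned to 5000 UMIs. The alternatives without clusters 5 and 9, without leukocyte barcodes and relative to the median were chosen after seeing the data. Depth limits TGFBR2, SMAD7 and TGFB2, with at most 207 UMIs in a follicle.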
